A study of Mus musculus with 4 samples.

Results

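Arhgap26, Ank2, Rbms3 and Ctbp2 are 4 mouse genes that were chosen as rich in regions open in oligodendrocyte progenitor cells (OPCs) and not in oligodendrocytes (OLs). The counts below do not bear this out for Ctbp2. The genes are 4 of 21883 protein-coding genes and 4 of the 2428 that are at least 100 kb long. A region here is a stretch of merged overlapping or touching ATAC-seq peaks, it is OPC-only where both OPC peak lists and neither OL list hold a peak, and OL-only is the converse. A shared region has a peak in all 4 lists. Each gene was read over its annotated interval plus 2 kb on each side. The 4 windows held 336 of 229485 merged regions, of which 68 were OPC-only, 33 OL-only and 82 shared. Because the members were selected on this contrast, their OPC and OL values are given as a description with no test. OPC-only regions outnumbered OL-only ones in Arhgap26 (27 against 13), Ank2 (18 against 6) and Rbms3 (20 against 8), and not in Ctbp2 (3 against 6). With only the best 50% of each list by q value Rbms3 had 6 of each. Per 100 kb, Ctbp2 had more OPC-only regions than Rbms3, with 2.13 against 1.88, but this rests on 3 regions, and Ctbp2 had 4.25 OL-only ones. By number and against its OL-only regions, Ctbp2 was thus not rich in OPC-only regions. For Rbms3 that description depended on the measure.

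Open chromatin was mapped in 4 Omni-ATAC-seq libraries, made with a transposase that cuts accessible DNA and tags it for sequencing, each from nuclei of 50000 cells. The cells were grown from the mouse epiblast stem cell lines 129O1 and EpiSC5, and each line gave 1 OPC library and 1 OL library, so n = 2 in each group. OPCs of both lines were cultured in bFGF and PDGFA (each at 20 ng/mL) and sorted for CD140a and NG2 after 4 passages, and OLs were sorted for the surface lipid antigen O1. Strains 129SvEv and 129S1/SvImJ are named without tying a strain to a line for certain, each line is a single stem cell line, and no tissue-derived cell was compared. The labels do not say that the libraries came from separate differentiations, so every spread and p-value measures only the difference between these libraries, which may be technical. In the order 129O1 OPC, EpiSC5 OPC, 129O1 OL and EpiSC5 OL, which is kept below, the lists held 129534, 125002, 127196 and 152595 peaks. They covered 38.6, 44.1, 34.99 and 41.2 Mb, and median peak widths were 201, 238, 190 and 192 bp. The lists hold no read counts, so depth is unknown, and the absence of a peak does not mean that a site was closed.

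OPCs are the dividing precursors that give rise to the myelin-forming OLs, and regions open in only one of them include candidate enhancers and promoters used at that stage. Arhgap26 encodes GRAF, a protein that bends membranes and switches off small GTPases that control the actin cytoskeleton. Ank2 encodes ankyrin-B, which ties membrane proteins to the spectrin skeleton beneath the membrane. Rbms3 encodes an RNA-binding protein of the cytoplasm. Ctbp2 encodes a corepressor that is recruited to DNA by transcription factors, and an internal start of the same gene gives RIBEYE, the core protein of synaptic ribbons.

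Both Ank2 and Rbms3 have several start sites in RefSeq, and the 300 bases around 4 of them are printed because these starts differed in which libraries held a peak. The sequences are from RefSeq on GRCm38.p6 (mm10), run 5′ to 3′ along the minus strand from 250 bases before to 50 bases after the annotated start, and CG dinucleotides are in capitals. The Ank2 start near the gene's upper end is at chr3:127499066-127499365, and an internal Ank2 start is at chr3:126998403-126998702. The first Rbms3 start is at chr9:117629864-117630163 and its internal start at chr9:117252434-117252733.
Ank2 upper start: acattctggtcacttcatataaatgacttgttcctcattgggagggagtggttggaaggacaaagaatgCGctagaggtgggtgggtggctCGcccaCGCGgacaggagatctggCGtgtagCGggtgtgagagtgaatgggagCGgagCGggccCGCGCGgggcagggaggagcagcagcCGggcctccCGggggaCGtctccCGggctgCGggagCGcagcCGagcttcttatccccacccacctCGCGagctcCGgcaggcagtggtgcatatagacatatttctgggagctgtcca
Ank2 internal start: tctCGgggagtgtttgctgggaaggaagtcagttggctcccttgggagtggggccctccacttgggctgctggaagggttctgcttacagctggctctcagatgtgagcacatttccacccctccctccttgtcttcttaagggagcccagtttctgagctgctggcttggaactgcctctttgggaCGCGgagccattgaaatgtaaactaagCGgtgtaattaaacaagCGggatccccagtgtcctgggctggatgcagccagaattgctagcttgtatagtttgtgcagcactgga
Rbms3 first start: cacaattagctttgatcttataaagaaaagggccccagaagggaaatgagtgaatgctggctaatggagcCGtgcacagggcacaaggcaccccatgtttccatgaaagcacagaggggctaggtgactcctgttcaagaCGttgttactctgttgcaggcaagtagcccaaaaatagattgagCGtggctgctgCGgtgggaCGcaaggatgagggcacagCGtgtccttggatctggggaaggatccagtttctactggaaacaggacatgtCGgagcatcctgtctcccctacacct
Rbms3 internal start: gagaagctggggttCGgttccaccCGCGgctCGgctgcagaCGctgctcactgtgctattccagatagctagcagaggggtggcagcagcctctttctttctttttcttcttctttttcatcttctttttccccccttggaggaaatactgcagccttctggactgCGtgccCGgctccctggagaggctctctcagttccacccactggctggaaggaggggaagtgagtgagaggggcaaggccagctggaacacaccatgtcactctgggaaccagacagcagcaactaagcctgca
The Ank2 upper start held 21 CG dinucleotides and lay in a shared region covered over 1148, 1204, 585 and 683 bp. The Ank2 internal start held 5 CG dinucleotides, and its 300 bases were covered over 258 and 300 bases in OPCs and 0 in both OL lists. That pattern, a window touched by both OPC lists and neither OL list, was found at 758 of 32851 listed start sites (2.31%), and the converse at 0.603%. The region around that Ank2 start was nevertheless shared, with 842 and 1269 bp covered in OPCs and 336 and 333 bp in OLs, so its OL peaks lay beside the start and not on it.

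The first Rbms3 start held no peak in any list, and the nearest region of any class was 46.1 kb away. The internal Rbms3 start held 7 CG dinucleotides, as did the first, and lay in a shared region covered over 433, 488, 352 and 359 bp. Ank2 had a further start at 127409058 in a shared region, with 663, 686, 612 and 523 bp covered, and one at 126943386 without a peak. The 2 listed Ctbp2 starts, at 133081860 and 133015247, held no peak either. Both are internal, 42.1 and 109 kb from the upper end, where this minus-strand gene begins. No start is listed at that end, which lay in a region shared by all 4 lists. Over all 32851 listed start sites, 39.9% had a peak in all 4 lists and 50.9% in none, and the median number of CG dinucleotides was 23 in the former and 3 in the latter. The E-box letters CAGCTG, a palindrome and so the same on both strands, were found in 16.3% of all start windows and, among these 4 printed sequences, in both internal starts. TATAAA on either strand, in 13.6% of start windows, was found in the Ank2 upper start and the first Rbms3 start. GGGCGG, in 35.7% of them, was in none of the 4, and neither was TGANTCA (7.81%). CAGATG (17.2%) was in the Ank2 internal start. These are matches of letters and do not show that a factor bound there.

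In number of OPC-only regions Arhgap26, with 27, stood first of the 2428 long genes. Of its 27 regions 5 lay in genes that overlap it, and no gene's count was corrected for such overlaps. Without those 5 it would stand behind the uncorrected count of Dab1. Arhgap26 was followed by Dab1 with 26, Nfia and Rbms3 with 20 each, Nrxn3 with 19 and Ank2 with 18, and Kalrn came next with 17. Ctbp2, with 3, was tied for place 765. The median long gene held 2 OPC-only and 4 OL-only regions. Only 537 of the 2428 long genes (22.1%) had more OPC-only than OL-only regions, and 45 of the 226 genes of at least 500 kb (19.9%). Dab1 had 27 OL-only regions beside its 26 OPC-only ones, and Nrxn3 and Kalrn had 17 each, whereas Arhgap26 had 13, Ank2 6 and Rbms3 8. Nfia was like the latter, with 10 OL-only beside its 20 OPC-only regions, and it had 3.67 OPC-only regions per 100 kb. Of the regions that switched between the cell types, OPC-only ones made up 67.5% in Arhgap26, 75% in Ank2, 71.4% in Rbms3 and 33.3% in Ctbp2, against 34.6% in all long genes together and 38.8% over the genome.

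**Figure D1:**
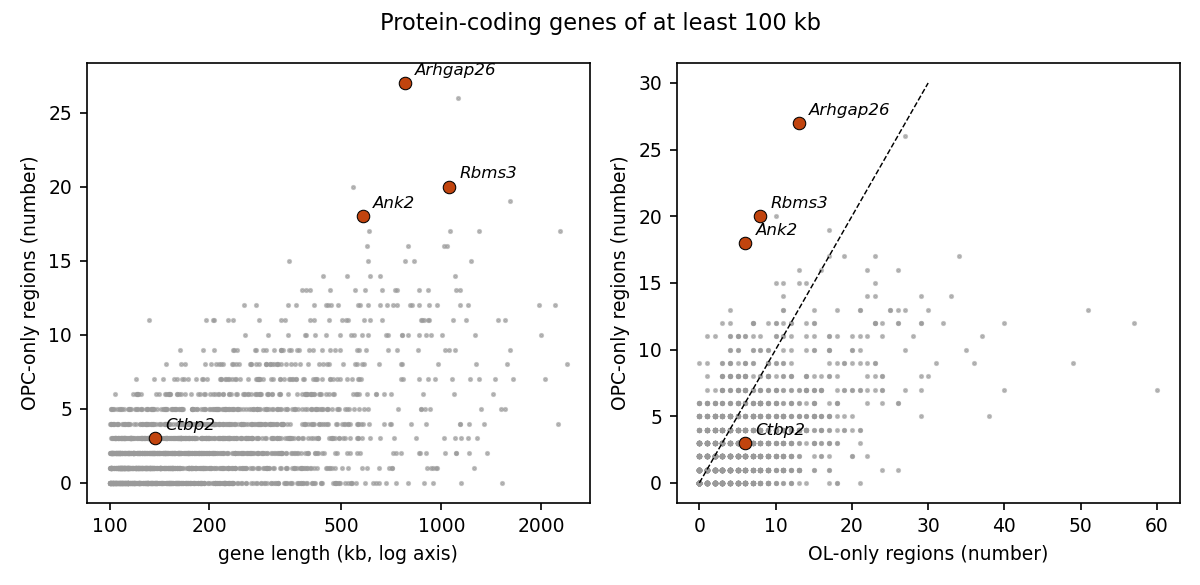
Number of OPC-only regions in each protein-coding gene of at least 100 kb (grey points), against gene length in kb on a log axis (left) and against the number of OL-only regions (right), with the 4 genes in red and a dashed line at equal numbers. Arhgap26 (27 against 13), Ank2 (18 against 6) and Rbms3 (20 against 8) lie above the line, and Ctbp2 (3 against 6) lies below it.

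Per 100 kb of sequence the genes were less extreme. OPC-only regions numbered 3.47 per 100 kb in Arhgap26, 3.09 in Ank2, 2.13 in Ctbp2 and 1.88 in Rbms3, which placed them at 114, 160, 474 and 585 of 2428, where the median was 1.03. The neighbours in that order were Sulf1 (3.47) and Tcf4 (3.44) around Arhgap26, Mast2 (3.10) and Stxbp6 (3.09) around Ank2, Notch2 (2.13) and Zbtb16 (2.12) around Ctbp2, and Taok3 (1.89) and Tm4sf1 (1.88) around Rbms3. Against the 226 genes of at least 500 kb, with a median of 0.788, Arhgap26 was number 2, Ank2 number 3 and Rbms3 was number 22. OL-only regions numbered 1.67, 1.03 and 0.754 per 100 kb in Arhgap26, Ank2 and Rbms3, below the median of 1.98 for long genes, and 4.25 in Ctbp2. Shared regions were dense in Ctbp2, with 7.80 per 100 kb, and sparse in Rbms3, with 1.13, beside 4.80 in Ank2, 3.98 in Arhgap26 and a median of 2.57.

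Arhgap26 (gene ID 71302, chromosome 18, 38601617 to 39376285, 775 kb) had 129 regions. Peaks covered 27.2 and 34.8 kb of its window in OPCs and 14.3 and 18.0 kb in OLs. After scaling each list to the mean total length of the 4 lists, these were 27.9, 31.3, 16.2 and 17.4 kb. Both OPC libraries lay above both OL libraries, with scaled means of 29.6 ± 2.39 kb and 16.8 ± 0.813 kb (SD, n = 2 each), a ratio of 1.76. How often other genes have such an order, here and below, was not tested, and the choice of the members favored it. The OL minus OPC difference of log2(scaled covered bp + 200) was -0.81, and 3.62% of the tested genes had a more negative one. The members were chosen on this contrast, so such a place, here and below, is a description. Test calls are another measure and are not given for the members. Of all 14540 genes tested, 8.63% were called lower in OL and 11.0% higher by limma, the linear-model test used here, at an adjusted p below 0.05. Peak numbers were 84, 88, 55 and 77.

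The OPC-only regions of Arhgap26 lay in 15 of 20 equal bins of 38.9 kb along the gene, and the fullest bin held 5. Their first and last midpoints were 744 kb apart, the median distance between neighbours was 16.8 kb, and the longest gap was 134 kb. The 3 with the most covered sequence were at 38811894 to 38812803 (364 and 910 bp in the OPC lists), 39232847 to 39233731 (406 and 862 bp) and 39075153 to 39075791 (552 and 579 bp). The largest OL-only region, at 39181036 to 39181697, was covered over 662 and 638 bp in the OL lists, and the largest shared region, at 38992333 to 38994180, over 1764, 1802, 1591 and 1358 bp. The interval of Arhgap26 overlaps Fgf1, which encodes a fibroblast growth factor, and the predicted gene Gm5820, and 5 of its 27 OPC-only regions lay in them, so those cannot be given to Arhgap26 alone.

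Ank2 (gene ID 109676, chromosome 3, 126921607 to 127500347, 579 kb) had 88 regions. Peaks covered 18.6, 18.98, 11.3 and 11.9 kb in the 4 lists, and 19.1, 17.1, 12.8 and 11.4 kb after scaling. Both OPC libraries again lay above both OL libraries, at 18.1 ± 1.42 kb and 12.1 ± 0.941 kb (SD, n = 2 each), a ratio of 1.495. The log2 difference was -0.57 in each line, and 7.63% of tested genes were more negative than the mean of the lines. Peak numbers were 68, 58, 43 and 52.

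OPC-only regions of Ank2 lay in 11 of 20 bins, with a median distance of 23.4 kb between neighbours, and 13 of the 18 stood between the start at 127409058 and the internal start at 126998452. That stretch was 70.5% of the window and also held 17 of the gene's 28 shared regions and 3 of its 6 OL-only regions. The OPC-only regions with the most covered sequence were at 127019032 to 127019732 (543 and 701 bp), 127386978 to 127387444 (467 and 184 bp) and 127137568 to 127138074 (507 and 119 bp). The latter pair was wider in 129O1, the first in EpiSC5. The largest shared region of Ank2, at 127161217 to 127162769, was covered over 1433, 1362, 1001 and 949 bp, and the largest OL-only region, at 127175051 to 127175360, over 193 and 310 bp. The median distance from an OPC-only to the nearest shared region was 6.42 kb in Ank2, against 12.9 kb in Arhgap26, 20.1 kb in Ctbp2 (3 regions) and 32.6 kb in Rbms3. Shared regions differed in density, with 4.80, 3.98, 7.80 and 1.13 per 100 kb in the same order. Whether the classes stood closer than these densities give was not tested.

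Rbms3 (gene ID 207181, chromosome 9, 116572746 to 117629913, 1057 kb) is the longest of the 4 and had 81 regions. Peaks covered 11.8, 13.2, 7.14 and 8.73 kb, and 12.1, 11.9, 8.11 and 8.42 kb after scaling. The OPC libraries lay above the OL libraries, at 12.03 ± 0.138 kb and 8.26 ± 0.224 kb (SD, n = 2 each), a ratio of 1.46. On the log2 scale OL minus OPC was -0.57 for 129O1 and -0.49 for EpiSC5, and 8.69% of tested genes were more negative than their mean. Peak numbers were 43, 50, 27 and 33.

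The OPC-only and OL-only regions of Rbms3 were spread differently around its internal start, and each class was found on both sides. Downstream of that start, over 64.2% of the window, stood 16 OPC-only, 2 OL-only and 7 shared regions, and between the first and the internal start stood 4 OPC-only, 6 OL-only and 5 shared regions. The longest stretch between neighbouring OPC-only regions was 179 kb, and 11 of 20 bins held at least 1. The OPC-only regions with the most covered sequence were at 116912149 to 116912708 (478 and 560 bp), 116919522 to 116920025 (445 and 504 bp) and 117205936 to 117206278 (255 and 343 bp). The largest OL-only region, at 117041291 to 117041949, was covered over 323 and 600 bp, and the largest shared region, at 116807239 to 116808246, over 883, 963, 759 and 536 bp. With only the best 50% of each list by q value, OPC-only and OL-only regions numbered 6 and 6 in Rbms3, 17 and 8 in Arhgap26 and 8 and 4 in Ank2.

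Ctbp2 (gene ID 13017, chromosome 7, 132986998 to 133124009, 137 kb) is the shortest and had 38 regions. Peaks covered 7.74, 7.59, 5.59 and 6.96 kb, and 7.96, 6.84, 6.34 and 6.71 kb after scaling. The lowest OPC value exceeded the highest OL value by little, and the means were 7.40 ± 0.792 kb and 6.53 ± 0.263 kb (SD, n = 2 each), a ratio of 1.13. On the log2 scale OL minus OPC was -0.32 for 129O1 and -0.03 for EpiSC5, and 30.7% of tested genes were more negative than their mean. By number of peaks the order turned, with 23 and 18 in OPCs and 24 in each OL list.

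One wide region accounted for most of the OPC-only sequence of Ctbp2. It lay at 133066798 to 133067963, 14.5 kb from the nearest listed start, and was covered over 998 and 1166 bp in the OPC lists, at an authors' fold over background of 7.10 and 8.405. The other OPC-only regions, at 133019608 to 133019951 and 133052875 to 133053182, were covered over 250 and 344 bp and over 148 and 308 bp. All 3 stood between the gene's 2 listed starts, over 47.2% of the window, together with 4 of the 6 OL-only regions. The largest OL-only region, at 133083011 to 133083257, was covered over 220 and 247 bp. The largest shared region, at 133122957 to 133124483, crossed the gene's upper end, where this minus-strand gene begins, and overlapped the predicted gene Gm35364. It was covered over 1490, 1520, 1416 and 1438 bp.

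**Figure D2:**
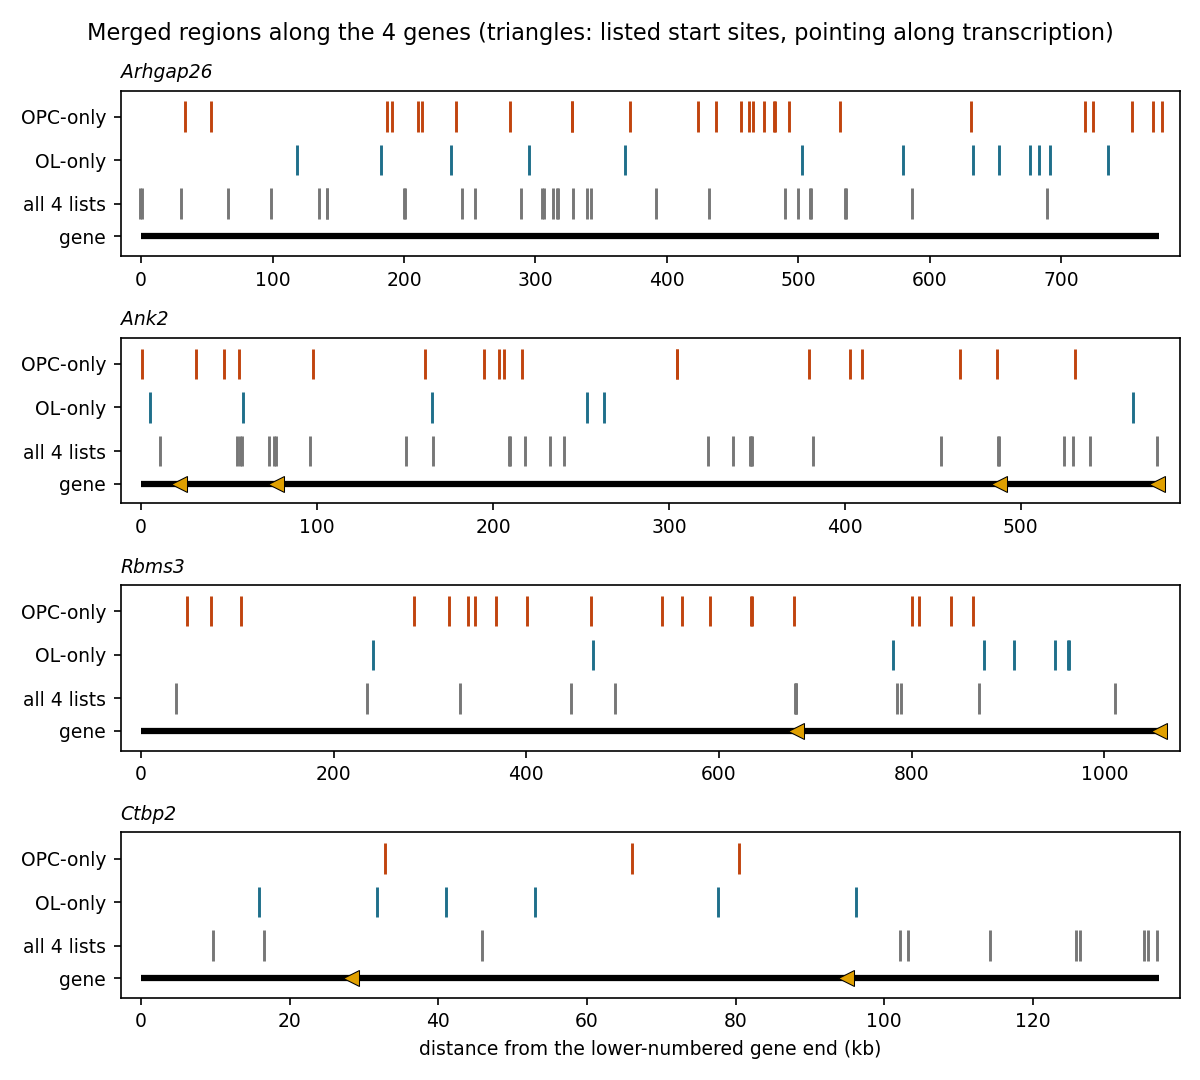
Position of OPC-only (red), OL-only (blue) and shared (grey) regions along each gene, in kb from the lower-numbered gene end. Triangles pointing along transcription are the start sites of Ank2, Rbms3 and Ctbp2 in the set used. That set had none for Arhgap26 and none at the upper end of Ctbp2. In Rbms3 16 of 20 OPC-only regions lie left of the internal start, and in Arhgap26 they fill 15 of 20 bins.

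**Figure D3:**
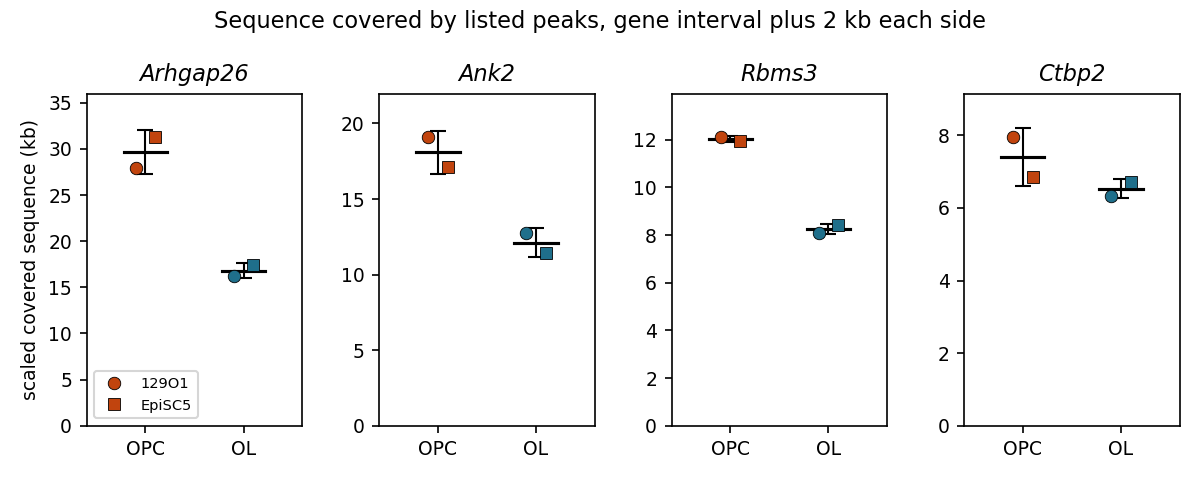
Scaled sequence covered by peaks (kb, axes from 0) in each gene window, with 1 point per library (circle 129O1, square EpiSC5), and the mean and SD of n = 2 as bars. OPC and OL libraries are apart in Arhgap26 (29.6 against 16.8 kb), Ank2 (18.1 against 12.1 kb) and Rbms3 (12.03 against 8.26 kb), and close in Ctbp2 (7.40 against 6.53 kb).

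Shared regions made up the largest class of covered sequence in the OL lists of each gene. In Ank2 they held 58.8% and 66.4% of what peaks covered in OPCs and 83.8% and 76.4% in OLs. In Rbms3 the shares were 39.2% and 38.4% in OPCs and 53.1% and 44.2% in OLs. OPC-only regions held 37.1% and 38.2% of the OPC coverage of Rbms3, 26.9% and 29.2% of that of Arhgap26, 22.7% and 20.2% of that of Ank2, and 18.0% and 23.9% of that of Ctbp2. OL-only regions of Rbms3 were few but made up 31.7% and 31.1% of its OL coverage. In Ank2 the OL-only share was 8.54% and 9.29%.

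**Figure D4:**
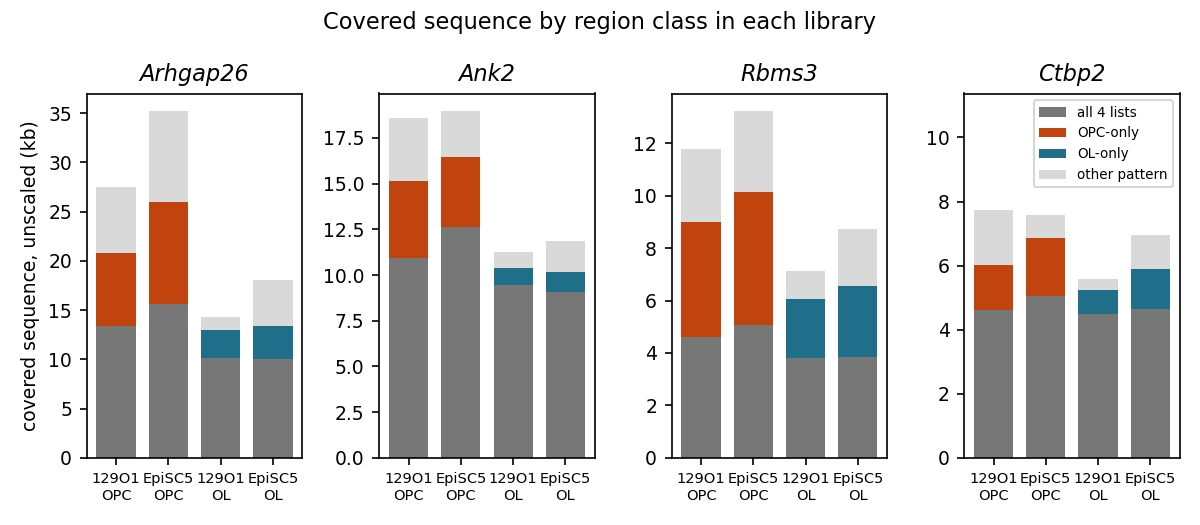
Unscaled covered sequence (kb, axes from 0) in each gene and library, stacked by region class, with a region that crosses a window's edge counted whole. In Arhgap26 OPC-only regions add 7.41 and 10.3 kb to the OPC lists, and shared regions cover 13.4 and 15.7 kb in OPCs against 10.1 and 10.0 kb in OLs.

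Regions that kept a peak in all 4 lists also covered more sequence in OPCs in parts of these genes. A shared region was wider in both OPC lists than in either OL list at 19 of 31 in Arhgap26, 8 of 12 in Rbms3, 11 of 28 in Ank2 and 4 of 11 in Ctbp2, that is at 61.3%, 66.7%, 39.3% and 36.4%, and over the genome at 49.2% of 55402. The opposite held at 3, 2, 4 and 2 of them, and at 13.8% over the genome. Arhgap26 and Rbms3 were thus above the share of all regions and Ank2 and Ctbp2 below it, and no test was made of these counts.

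Within a list, OPC-only peaks were mostly narrower than shared ones. In the 129O1 OPC list the median width of OPC-only against shared peaks was 247 against 309.5 bp in Arhgap26, 178 against 251 bp in Ank2 and 204.5 against 386 bp in Rbms3, and it was 184 against 279 bp over the whole list. In the EpiSC5 OPC list it was 358.5 against 346.5 bp in Arhgap26, 186.5 against 310 bp in Ank2 and 233.5 against 418 bp in Rbms3, and 221 against 373 bp over the list. Only in the EpiSC5 list, and only in Arhgap26 among the 4 genes, was the OPC-only median above the shared one. The authors' median fold over background of the OPC-only peaks was 6.55 and 6.85 in Arhgap26, 6.84 and 6.03 in Ank2, 6.75 and 8.38 in Rbms3 and 6.99 and 8.405 in Ctbp2, beside 6.61 in each list over all OPC-only peaks. Merged OPC-only regions had a median width of 377 bp in Arhgap26, 344 bp in Ctbp2, 282.5 bp in Rbms3 and 258 bp in Ank2, and of 270 bp over the genome.

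The sequence next to the genes held fewer OPC-only regions on the upper side. In the 200 kb below and above each gene there were 5 and 1 beside Arhgap26, 3 and 2 beside Ank2, 4 and 0 beside Rbms3 and 2 and 1 beside Ctbp2. That is 2.5 and 0.5 per 100 kb beside Arhgap26 and 2 and 0 beside Rbms3. OL-only regions beside Ctbp2 numbered 10 below and 7 above.

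Apart from the 3 classes, 58 regions of Arhgap26, 36 of Ank2, 41 of Rbms3 and 18 of Ctbp2 had another pattern, mostly a peak in a single list. These were 45.0%, 40.9%, 50.6% and 47.4% of the genes' regions, against 50.3% of all regions. In Rbms3 15 were in the EpiSC5 OPC list alone and 8 in the 129O1 OPC list alone. In Ank2 the order was the opposite, with 6 and 12, and Arhgap26 had 13 and 14. Regions in the EpiSC5 OL list alone numbered 16 in Arhgap26 and 10 in Ank2, against 0 and 1 in the 129O1 OL list alone, and the EpiSC5 OL list was the one with the most peaks.

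Coverage was summed over lists of cell type markers, and the sums were not tested. A sum can hide markers of a list that differ in direction. Over the 6 vascular and mesenchymal markers the summed scaled coverage was 8.99, 9.25, 3.73 and 3.43 kb, with a peak at 5 of the 6 in every list and none at Cldn5 in any. Over the 5 astrocyte markers, all with a peak in every list, it was 9.10, 9.22, 6.75 and 6.38 kb, and over the 5 neuron markers 21.8, 24.8, 21.0 and 19.6 kb. Over the 8 OL markers it was 8.26, 11.2, 18.1 and 20.8 kb, and over the 6 OPC markers 12.8, 13.2, 14.0 and 14.1 kb in sum. Among the OPC markers, Sox10 covered more in each OL library than in each OPC library (729, 778, 1476 and 1682 scaled bp). So did Pdgfra (2186, 2481, 2838 and 2801 bp) and Cspg4 (4222, 4015, 4490 and 4293 bp). Olig2 (633, 877, 565 and 681 bp) and Ptprz1 (3540, 4098, 3229 and 3516 bp) were lower in OLs in each line. The sign for Olig1 (1469, 943, 1393 and 1131 bp) depended on the line, with a fall from OPC to OL for 129O1 and a rise for EpiSC5. The 4 microglia markers summed to 2.75, 2.51, 2.43 and 2.80 kb, with the groups overlapping. The part of other cell types in the values of the 4 genes was not tested.

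The difference between the cell lines was not itself a criterion for the genes and was tested with limma, with cell type as a term, over 14540 genes. The choice was still not independent of it, because an OPC-only region needs a peak in the OPC lists of both lines. A lack of line calls in the members can thus not be read apart from the choice. None of the 4 genes was called, against a background of 4 genes called in all, or 0.0275%. The EpiSC5 minus 129O1 difference of log2(scaled covered bp + 200) was 0.02 in Rbms3 (95% interval -0.24 to 0.27, adjusted p = 0.951 by limma) and -0.07 in Ctbp2 (-0.37 to 0.24, adjusted p = 0.813). It was 0.13 in Arhgap26 (-0.07 to 0.33, adjusted p = 0.515 by limma) and -0.16 in Ank2 (-0.38 to 0.07, adjusted p = 0.494). These intervals do not show that the lines were alike. The median over all tested genes was -0.09. With so few libraries the fit had 1 residual degree of freedom, beside 5.28 borrowed from all genes.

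Single OPC-only regions were more often wider in EpiSC5. That was so at 18 of 27 in Arhgap26, 14 of 20 in Rbms3, 10 of 18 in Ank2 and 3 of 3 in Ctbp2, and at 63.5% of the 22702 OPC-only regions of the genome. Median covered lengths were 265 and 375 bp in 129O1 and EpiSC5 in Arhgap26, 204.5 and 233.5 bp in Rbms3 and 192.5 and 186.5 bp in Ank2, beside 192 and 223 bp over the genome. The EpiSC5 OPC list had the widest peaks of the 4 lists.

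Relatives and partners of the 4 genes were tested for OL against OPC over all genes, with 11.0% of tested genes called higher in OL and 8.63% called lower. Among 8 genes of the GRAF list, paralogs of Arhgap26 with the small GTPases and kinases around them, 1 rose in OL and none fell. Ptk2, which encodes the focal adhesion kinase that GRAF binds, covered 5.46, 6.14, 7.90 and 9.72 kb and rose by 0.58 (SE 0.14, adjusted p = 0.00573 by limma). It was higher in each OL library than in each OPC library, the opposite order to Arhgap26. The closest paralogs, Arhgap10 (0.07, adjusted p = 0.819) and Arhgap42 (-0.09, adjusted p = 0.739), were not called. Ptk2 did not pass when the OLs of EpiSC5 were left out (log2 difference 0.43, adjusted p = 0.114 by limma), nor without scaling (0.46, adjusted p = 0.254), with median-of-ratios scaling (0.60, adjusted p = 0.0857), by number of peaks (adjusted p = 0.0897) or with the best 50% of each list (0.34, adjusted p = 0.279). The median of the list was 0.22 and that of all tested genes -0.02.

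The paralogs of Rbms3 lay on the same side as Rbms3 and were not called. Rbms1 covered 6.51, 6.30, 4.48 and 5.44 kb (log2 difference -0.36, adjusted p = 0.0786 by limma) and Rbms2 1.81, 2.06, 1.51 and 1.49 kb (-0.33, adjusted p = 0.167). In both genes each OPC library lay above each OL library (n = 2 each). How often other genes have this order was not tested.

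Of 18 ankyrin, spectrin and partner genes 1 rose and 1 fell in OL. Sptbn1, a beta spectrin gene, rose by 0.54 (SE 0.14, adjusted p = 0.0116 by limma), from 4.09 and 5.08 kb to 6.65 and 6.76 kb. Add2, which encodes an adducin that caps actin at spectrin junctions, fell by 0.54 (SE 0.15, adjusted p = 0.0157 by limma), from 4.03 and 4.05 kb to 2.96 and 2.48 kb. The other ankyrin genes were not called, with log2 differences of -0.06 in Ank1 (adjusted p = 0.831) and -0.11 in Ank3 (adjusted p = 0.629). Without the EpiSC5 OL library neither call held, with differences of 0.53 in Sptbn1 (adjusted p = 0.0689 by limma) and -0.42 in Add2 (adjusted p = 0.169). Sptbn1 also missed the threshold without the 129O1 OPC (0.39, adjusted p = 0.0886) or the 129O1 OL library (0.55, adjusted p = 0.0561). Both missed it without scaling (adjusted p = 0.252 and 0.0619 by limma) and by number of peaks (0.0903 and 0.198), and Sptbn1 also with median-of-ratios scaling (0.0781) and with the best 50% of each list (0.135). The list's median was -0.13.

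Of 17 genes made up of Ctbp1 and partners of CtBP 2 rose and none fell in OL. Ehmt1, which encodes a histone H3 lysine methyltransferase found in CtBP complexes, covered 2.09, 1.73, 4.45 and 4.67 kb and rose by 1.18 (SE 0.15, adjusted p = 4.49e-05 by limma). Sox6, which encodes a transcription factor expressed in OPCs, covered 16.9, 15.7, 22.8 and 24.2 kb and rose by 0.52 (SE 0.10, adjusted p = 0.00121 by limma). Ctbp1, the paralog, covered 1.64, 1.83, 2.93 and 1.82 kb and was not called (0.38, adjusted p = 0.175), with a difference of 0.76 in 129O1 and -0.0029 in EpiSC5. Without the EpiSC5 OL library Ctbp1 passed, with a difference of 0.70 (adjusted p = 0.0197 by limma). The list's median was 0.12. Of the 5 genes called over the 4 lists, Ehmt1 passed under each of the 11 alternative settings run. Sox6 passed under 8, missing the threshold without scaling (adjusted p = 0.194 by limma), by number of peaks (0.0714) and with median-of-ratios scaling (0.0503). Add2 passed under 8, Ptk2 under 6 and Sptbn1 under 4.

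**Figure D5:**
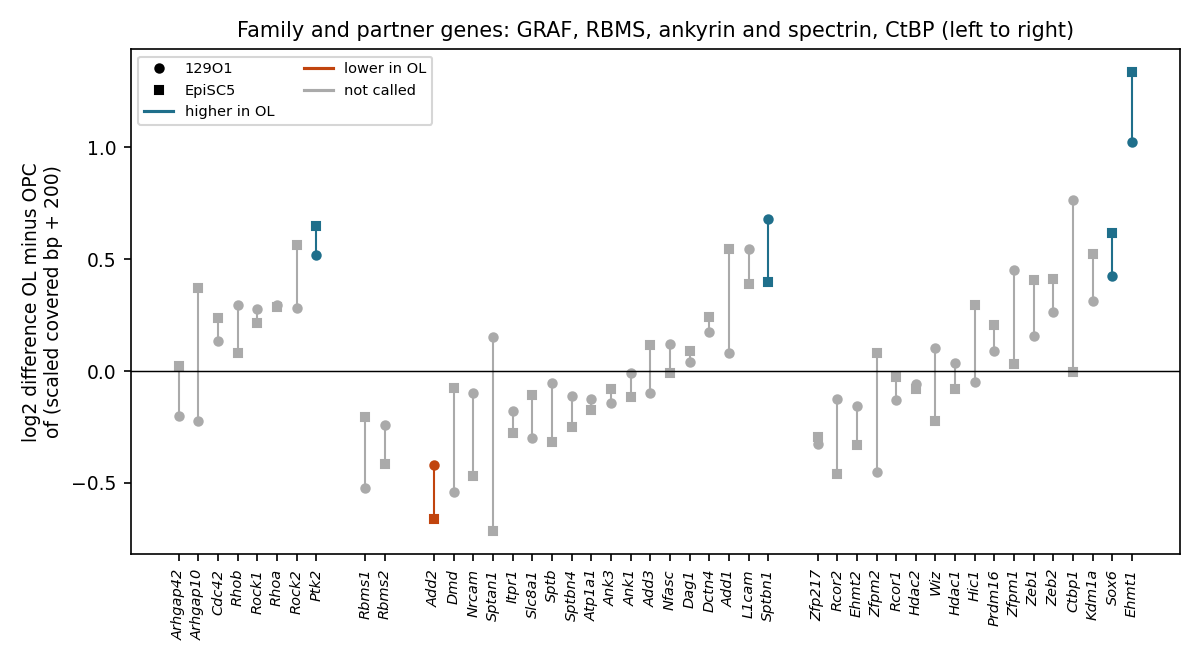
OL minus OPC difference of log2(scaled covered bp + 200) in each line (circle 129O1, square EpiSC5) for the genes of the 4 family and partner lists, colored by the limma call over all genes. Ehmt1 (1.18 over both lines) is the highest, and Add2 (-0.54) is the one called lower in OL.

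The long genes whose coverage per 100 kb was nearest to that of each member over the 4 libraries were found by Euclidean distance on the log2 scale. For Arhgap26 they were Grk3 (distance 0.111, length 105 kb) and Abca4 (0.214, 136 kb), which had 4 and 5 OPC-only regions. For Ank2 they were Dclk1 (0.117, 297 kb) and Chn1 (0.166, 165 kb), with 8 OPC-only regions each. For Rbms3 they were Dcdc5 (0.0910, 329 kb) and Ccdc85a (0.156, 202 kb), with 4 and 3. For Ctbp2 they were Msi2 (0.0989, 379 kb) and Synj2 (0.113, 114 kb), with 13 and 2. Their lengths differ from those of the members, so these numbers of regions cannot be compared directly with the members' numbers. All 8 were chosen for their likeness in coverage alone.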

How the data were processed

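The data are 4 Omni-ATAC-seq peak lists, 1 per library, on mm10. Per the labels' protocols, nuclei were transposed for 30 min at 37 °C and sequenced as single-end 50 bp reads, with 100 M reads stated per sample. The tools named were MACS2, Picard, Bowtie2 2.3.2 and Trim Galore 0.3.1, per the submitters' processing notes. MACS2's version and settings, duplicate handling and any Tn5 shift were not given in the sources used here. Each deposited peak has a score, −log10 values of p and q, and a fold enrichment, which is a ratio over background, all from the authors' peak caller. The fold of a peak is the authors' own and was used only to describe peaks within a list, and q only to rank them. Every peak had a −log10 q above 3.

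Peaks were assigned to RefSeq gene intervals of GRCm38.p6 (the assembly of mm10) plus 2 kb on each side, and overlapping or touching peaks of the 4 lists were merged, with an overlap of at least 1 bp counted. Start windows came from RefSeq on the same assembly, and the set used had none for Arhgap26 and none at the upper end of Ctbp2. Covered base pairs were scaled to the mean list total, 200 bp was added, and the log2 values were tested with limma 3.58.1 in R 4.3.3 (trend on the mean, two-sided, p adjusted by Benjamini-Hochberg, threshold 0.05) for genes with a mean of at least 500 bp. A fold on this scale understates changes of genes with little coverage. Tables were made with Python 3.11.15 and pandas 2.3.3.

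The members and lists were chosen with earlier results of these data known. Genes named are the members, list genes that passed the test (at most 4 per list), the closest paralogs, rank neighbours and the 2 nearest long genes by coverage. Regions named are the 3 OPC-only, 1 OL-only and 1 shared with the most covered sequence in each gene. A few genes of these lists are not reported here. The genes next to the members in rank by number were named after their values were seen. Alternatives changed the scaling, pseudocount, filter, measure, peak set, merging and bins, added a block, or left out a library.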

Additional observations from a re-analysis of the deposited data

Results flagged for a closer look

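The difference between the cell lines had opposite signs in the cell types for 2 genes. In Ctbp2 the EpiSC5 minus 129O1 difference of log2(scaled covered bp + 200) was -0.21 in OPCs and 0.08 in OLs. In Rbms3 it was -0.02 in OPCs and 0.05 in OLs. Each value compares 1 library with 1 library, and the difference between the cell types was not tested.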

How the results depend on the processing

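The OL minus OPC differences of Arhgap26, Ank2 and Rbms3 kept their sign under the 11 alternatives run, and that of Ctbp2 turned to 0.11 by number of peaks. These genes were chosen on this contrast in the same lists, so a kept sign is a description and no support. With cell line as a replicate block, the adjusted p by limma rose in each called list gene and stayed below 0.05. It was 0.00698 in Ehmt1, 0.0162 in Sox6, 0.0193 in Ptk2, 0.0318 in Add2 and 0.0326 in Sptbn1. Of all genes, 2859 were called for OL against OPC in the main fit, which had no term for line, and 2925 with that block. The total thus changed little, though the adjusted p of each called list gene rose. The count was 583 without scaling (33.8% of them higher in OL), 548 by number of peaks (71.2% higher) and 1632 with the best 50% of each list, and it lay between 1869 and 2296 with a library left out. Without scaling the median of all genes was -0.13. For the cell lines the 4 calls became 0 with median-of-ratios scaling and with the best 50%, 2 without the filter and 114 by number of peaks. Leaving out a library left no residual degrees of freedom for the line contrast, so its count could not be fitted. The line difference turned to -0.088 in Rbms3 and 0.0081 in Ctbp2 with the best 50%, to 0.052 in Ank2 and 0.14 in Ctbp2 without scaling, and to 0.043 in Ctbp2 with median-of-ratios scaling. None of these was called.

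The 68 OPC-only regions became 34 with the best 50% and between 75 and 113 with a library left out (108 without the 129O1 OPC list, 113 without the EpiSC5 OPC list). The 33 OL-only regions became 20 with the best 50% and between 35 and 74 with a library left out, with 74 without the 129O1 OL list. A class then needs 1 list less, which raises the counts. OPC-only regions filled 80% of 10 bins in Rbms3 and 90% in Ank2, and 47.5% of 40 bins in Arhgap26, against 55%, 55% and 75% of 20 bins.

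Among uncalled relatives, Arhgap10 turned to -0.041 without scaling and lay between -0.092 and 0.24 with a library left out, below 0 without either EpiSC5 library. Ank1 turned to 0.36 by number of peaks and lay between -0.20 and 0.069 with a library left out, above 0 when the OPCs of 129O1 or the OLs of EpiSC5 were dropped. Rbms2 turned to 0.25 by number of peaks, and Arhgap42 to 0.40 and Ank3 to 0.078 with the best 50%. The causes of these changes were not tested. Depth is unknown, and 2 libraries a group limit the precision.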
